A study of Caenorhabditis elegans with 14 samples.

Results

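Early embryos of the nematode Caenorhabditis elegans that carry mutations in both met-2 and hpl-2 were compared with embryos that carry the hpl-2 deletion alone. The comparison used 7 of the 14 RNA libraries of the study, 3 from met-2 hpl-2 double mutants and 4 from hpl-2 mutants, chosen by the genotype in their labels. Another 3 libraries, from wild-type embryos (N2 Bristol), are given as a description of the normal level, and the remaining 4 carry a different hpl-2 allele, hpl-2-FFAA(px112), and entered the shared estimate of the spread. The double mutant carries the alleles met-2(n4256) and hpl-2(tm1489), and the single mutant carries hpl-2(tm1489), so this deletion is shared by both groups. The double mutant was kept over hT2, a balancer that joins parts of chromosomes I and III and bears bli-4(e937), let-?(q782) and qIs48. The labels do not say whether embryos free of the balancer were picked for RNA. All strains were grown in synchronized culture at 20 °C and whole embryos were extracted, so that each library mixes all cell types of the embryo. The sample labels call the material yeast cells, against the organism they name, while 20392 worm genes had counts and the levels of met-2 and hpl-2 below follow the genotypes. Nothing in the labels says that replicates came from separate cultures, so that p-values measure the spread between libraries, which may be partly technical.

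MET-2 is a histone methyltransferase that places methyl groups on lysine 9 of histone H3 (H3K9), a mark of silent chromatin. HPL-2 belongs to the heterochromatin protein 1 (HP1) family, whose members bind methylated H3K9. In worms both act among the synMuv B genes, a class of repressors that keeps germline genes off in somatic cells and limits developmental gene expression. The comparison asks what differs when the methyltransferase gene is mutated in animals that already lack the HP1 protein.

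The groups differed in depth, so any difference in library preparation or sequencing that goes with it cannot be told apart from genotype. The double mutant libraries held between 14313366 and 14840992 counts, against 5497160 to 6390870 in the hpl-2 libraries and 5846490 to 6032200 in wild type. A single library at 3 counts, taken as the floor of detection, corresponds to 0.217 to 0.219 CPM (counts scaled to a common library size) in the double mutant and to 0.462 to 0.537 CPM in hpl-2. At least 1 count was found for 15836 to 16297 genes in double mutant libraries and for 13620 to 14039 genes in hpl-2 libraries. After each library was thinned at random to 5332725 counts, the double mutant libraries still held more detected genes, 14156 to 14585 against 13558 to 13724. Levels below are CPM with effective library sizes from edgeR's TMM method, which do not correct for gene length, and fold changes are met-2 hpl-2 over hpl-2 on the log2 scale.

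The mutated genes were low in the groups whose labels name them. The counts of met-2 (WBGene00019883, chromosome III 8375300-8380848, plus strand) were 31.3, 29.4 and 27.7 CPM in the 3 double mutant libraries, against 273.9, 263.2, 263.7 and 260.4 CPM in the 4 hpl-2 libraries. The mean of 29.4 ± 1.81 CPM in the double mutant (SD, n = 3) was 10.2% of the wild-type mean of 287.7 ± 8.83 CPM (SD, n = 3), and the log2 fold change against hpl-2 was -3.17 (SE 0.0480, adjusted p = 3.013e-19, edgeR). The hpl-2 gene itself (WBGene00001996, chromosome III 10752195-10755530, minus strand) had 8.58, 10.4 and 11.1 CPM in double mutant libraries and 5.36, 3.70, 4.30 and 4.30 CPM in hpl-2 libraries. Both groups thus stood far under the 95.9 ± 5.46 CPM of wild type (SD, n = 3), at 10.5% of it in the double mutant and 4.60% in hpl-2. What remained of hpl-2 counts was higher in the double mutant by 1.18 on the log2 scale (SE 0.140, adjusted p = 6.324e-07, edgeR).

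Most tested genes passed the test. Of 9498 genes with enough counts, 3420 were higher in met-2 hpl-2 than in hpl-2 (36.0%) and 3345 were lower (35.2%) at an adjusted p under 0.05 in edgeR's quasi-likelihood test, and a gene past this threshold is written here as risen or fallen. Called changes had a median size of 0.53 on the log2 scale, and the biological coefficient of variation was 5.34%, so small differences passed. Large changes ran mostly upward: 1090 genes were at least 2-fold higher (11.5%) and 313 at least 2-fold lower (3.30%). At least 4-fold, 232 were higher and 43 lower. Many of the 1090 were low, with 529 at a mean between 1 and 5 CPM. Of tested genes over 100 CPM, 4.36% were at least 2-fold higher and 0.16% at least 2-fold lower. The 2 groups of libraries did not overlap for 69.9% of the tested genes, so a lack of overlap by itself says little about any gene here. Counts of risen and fallen genes in the lists below stand against the 36.0% and 35.2% of all tested genes.

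**Figure D1:**
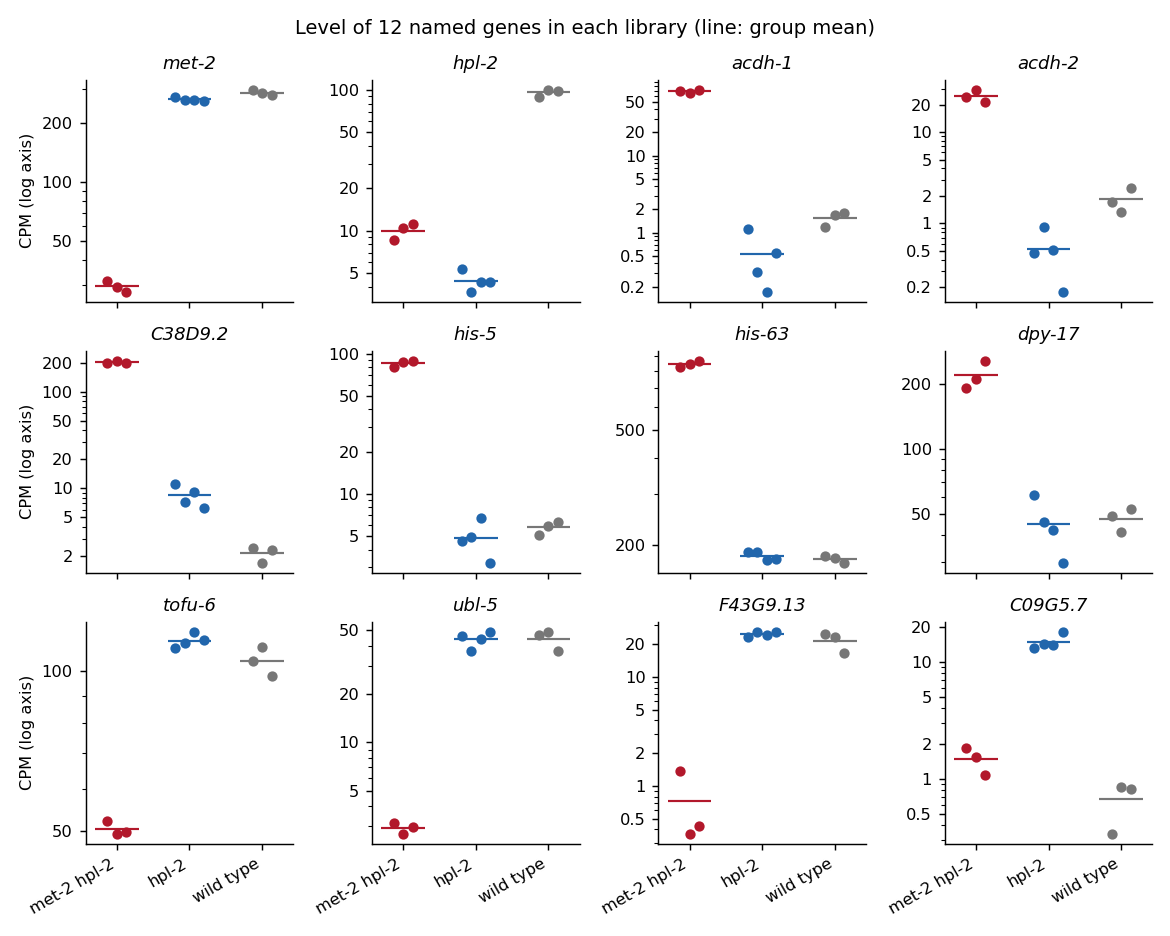
Level in CPM (log axis, a scale of its own for each gene) of 12 named genes in each library of met-2 hpl-2 (red, n = 3), hpl-2 (blue, n = 4) and wild type (grey, n = 3), with lines at group means. The double mutant stands apart from hpl-2 for every gene shown, while met-2 is low in the double mutant alone and C09G5.7 is high in hpl-2 alone.

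Fold change was also followed along the structure of genes, because it ran with exon length. The 209 tested genes whose longest annotated exon is at most 200 bases were lower in the double mutant by a median of -0.44 on the log2 scale, and 24.9% of them fell at least 2-fold. The 1223 genes with an exon over 1000 bases had a median of 0.21. The share of counts in genes with no exon over 200 bases was 0.383 to 0.387% in double mutant libraries, against 0.505 to 0.515% in hpl-2 and 0.493 to 0.502% in wild type. Genes with a counted width over 5000 bases, of which 309 were tested, had a median of 0.35, and 63.4% of them rose. Narrow genes did not all fall. The 368 tested genes up to 500 bases wide had a median of -0.08, with 13.3% at least 2-fold higher and 13.9% lower. All genes of that width held 2.19 to 2.39% of counts in double mutant libraries, against 1.73 to 1.76% in hpl-2. The 147 tested genes with 1 exon had a median of 0.42. Narrow genes include replication-dependent histone genes, with a median width of 470 bases over 29 tested members. These summed to 37287 to 43623 CPM in the double mutant, against 20861 to 22257 CPM in hpl-2. Their part in the share of narrow genes and in the median of 1-exon genes was not tested. In libraries thinned to equal depth the medians of the shortest and longest exon classes were -0.43 and 0.20. Gene overlap, exon number and junction density were looked at as well, but no source of this trend was tested. The trend cannot be told apart from genotype in these groups. A second fit, in which each library's smooth trend with width, longest exon and exons per kilobase was removed, called 3252 genes higher (34.2%), 3400 lower (35.8%), 1082 at least 2-fold higher (11.4%) and 240 at least 2-fold lower (2.53%). That fit, chosen after the trend was seen, also removes any true change that follows gene structure, so its values are given below beside the list medians, list counts and called genes that it moves by more than 1.5 times.

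**Figure D2:**
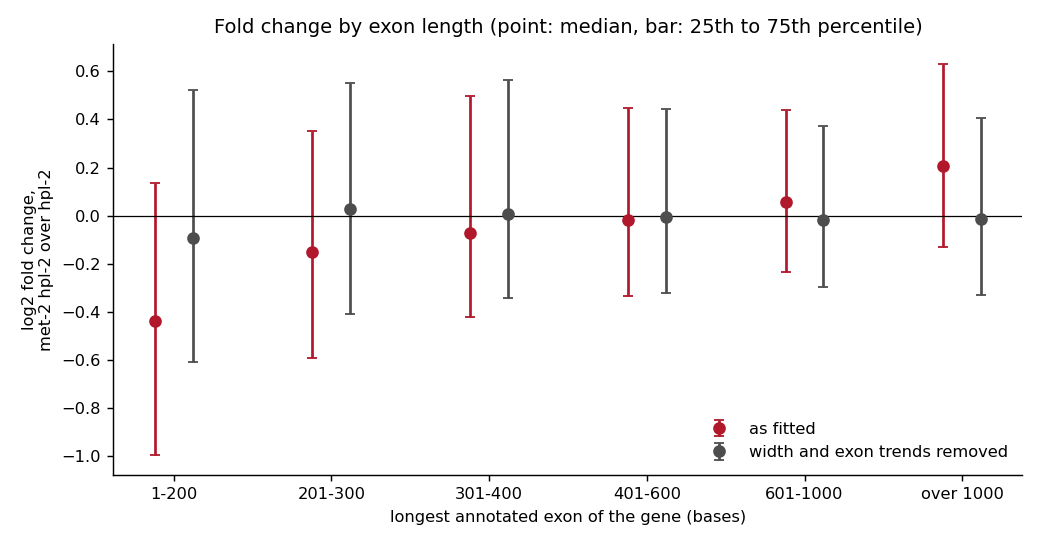
Log2 fold change of met-2 hpl-2 over hpl-2 (vertical axis) for tested genes grouped by the longest annotated exon in bases (horizontal axis), with medians as points and the 25th to 75th percentile as bars, as fitted (red) and with width and exon trends removed (grey). As fitted the median climbs from -0.44 for genes with the shortest exons to 0.21 for those over 1000 bases, and it lies near 0 in all 6 classes once the trends are removed, by the construction of that fit.

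The 10 strongest rises were led by genes that were almost silent in hpl-2. The acyl-CoA dehydrogenase gene acdh-1 (WBGene00016943, chromosome I 6497436-6499560, plus strand), an enzyme of the shunt that breaks down propionate, had 68.1, 65.6 and 71.4 CPM in double mutant libraries, against 1.10, 0.308, 0.172 and 0.537 CPM in hpl-2 libraries. Its wild-type mean was 1.56 CPM, and the log2 fold change over hpl-2 was 6.95 (SE 0.191, adjusted p = 3.085e-15, edgeR). The related dehydrogenase gene acdh-2 (chromosome II 5544778-5547492, minus strand) had 24.4, 29.1 and 21.5 CPM, against 0.473, 0.924, 0.515 and 0.179 CPM. In both genes every double mutant library lay far above every hpl-2 and wild-type library. The insulin-like peptide gene ins-13, at 25.6 ± 3.60 CPM in the double mutant (SD, n = 3) and 0.609 ± 0.349 CPM in hpl-2 (SD, n = 4), overlaps acdh-2 on the same strand, so the counts of this pair of genes may be the same reads.

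The cuticlin gene cut-2, whose product belongs to the cuticle, had 10.5, 9.14 and 11.6 CPM in double mutant libraries, and a single count over the 4 hpl-2 libraries. Its 430 counts against 1 give a ratio of depth-scaled counts of 252.5, with a 95% counting interval from 45.1 to 9997. F41F3.3 had 371 counts against 1, a ratio of 217.9 with an interval from 38.9 to 8628. Both genes also stood at a single count over the 3 wild-type libraries.

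C38D9.2 on the right arm of chromosome V (17567150-17571742, plus strand) was already above wild type in hpl-2 and rose further in the double mutant. It had 199.8, 211.4 and 201.9 CPM in double mutant libraries, 11.2, 7.24, 9.11 and 6.27 CPM in hpl-2 libraries and a wild-type mean of 2.12 ± 0.380 CPM (SD, n = 3). Its log2 fold change was 4.59 (SE 0.0970, adjusted p = 6.709e-17, edgeR). The histone H4 gene his-5 (chromosome V 8535214-8535525, plus strand) had 80.1, 86.5 and 88.7 CPM in double mutant libraries, against 4.57, 4.93, 6.70 and 3.22 CPM in hpl-2 libraries and a wild-type mean of 5.75 CPM. The others among the 10 were ZK180.5 (4.54), F30H5.3 (4.44) and chtb-1 (4.22 on the log2 scale), each under 1 CPM in every hpl-2 library.

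The 10 strongest falls included that of met-2 itself and were otherwise mostly of genes with a narrow counted width. F43G9.13 on chromosome I had 1.38, 0.365 and 0.433 CPM in double mutant libraries, against 23.5, 26.0, 24.6 and 26.0 CPM in hpl-2 libraries and 21.6 ± 4.42 CPM in wild type (SD, n = 3). Its log2 fold change was -5.07 (SE 0.240, adjusted p = 6.505e-12, edgeR). Its longest exon spans 135 bases, and it overlaps idha-1, which encodes a subunit of mitochondrial isocitrate dehydrogenase, on the opposite strand. The gene of the ubiquitin-like protein UBL-5, known from the mitochondrial unfolded protein response, fell as well: ubl-5 had 3.13, 2.70 and 2.96 CPM in double mutant libraries, against 45.6, 37.1, 44.0 and 48.4 CPM in hpl-2 libraries, with 44.1 CPM in wild type. The log2 fold changes of the other narrow genes were -3.47 for W03A5.6, -3.42 for ostf-4, -3.30 for K10B2.4, -3.26 for the ribosomal protein gene rpl-39, -3.20 for zfr-1 and -3.11 for Y39A3CL.3. Their counted widths ran from 176 bases for ostf-4 to 512 bases for K10B2.4, and in hpl-2 they stood at 71.7 to 119.4% of wild type. For W03A5.6 and zfr-1 the annotation holds exons longer than that width, and rpl-39 and zfr-1 overlap genes on the opposite strand, grl-10 and pde-6. With trends removed all of them still fell, and the log2 fold changes of F43G9.13 and ubl-5 were -4.60 and -3.70. That fit removes only a smooth trend, so it could hardly turn changes of this size. It cannot show whether counts of a single narrow gene were lost for another reason.

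C09G5.7, on chromosome II (10714883-10716457, plus strand), differed from these. It had 1.82, 1.54 and 1.08 CPM in double mutant libraries, against 13.3, 14.3, 13.9 and 18.1 CPM in hpl-2 libraries and 0.669 ± 0.285 CPM in wild type (SD, n = 3). It was thus high in hpl-2 alone, and its log2 fold change of -3.31 (SE 0.216, adjusted p = 4.58e-10, edgeR) was -3.30 with trends removed. The kinase gene dlk-1, which acts in axon regeneration, had a like order of levels: 23.2, 22.7 and 23.1 CPM in double mutant libraries, against 53.2, 67.0, 61.3 and 69.7 CPM in hpl-2 libraries and 6.82 CPM in wild type. It overlaps mec-19 on the opposite strand, and the sources used here do not say how the counting treated strand.

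Genes of muscle and epidermis rose together in the double mutant. Of 39 tested body wall muscle genes, 32 rose and 2 fell, with a median log2 fold change of 1.40, against 0.0146 over all tested genes. The muscle myosin heavy chain gene myo-3 had 22.12, 16.08 and 28.17 CPM in double mutant libraries and 2.84, 2.46, 1.89 and 1.61 CPM in hpl-2 libraries, with 0.726 CPM in wild type. In all 7 libraries the groups were apart, by 3.30 on the log2 scale (SE 0.254, adjusted p = 3.154e-09, edgeR). Another myosin heavy chain gene, unc-54, rose by 2.72, and the paramyosin gene unc-15 had 10.7 ± 0.554 CPM in the double mutant (SD, n = 3) and 1.30 ± 0.732 CPM in hpl-2 (SD, n = 4). The transcription factor genes of muscle fate rose less, hlh-1 by 1.40 and unc-120 by 1.53, and both stood in hpl-2 below their wild-type level: hlh-1 had 26.8 ± 0.963 CPM in the double mutant (SD, n = 3), 10.1 ± 2.04 CPM in hpl-2 (SD, n = 4) and 19.7 CPM in wild type. Since whole embryos were sequenced, fewer cells of a type and less RNA per cell cannot be told apart.

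The members of this list with the smallest p were long genes. The titin gene ttn-1 had 35.4, 31.4 and 43.9 CPM in double mutant libraries, against 5.20, 5.39, 4.81 and 4.30 CPM in hpl-2 libraries, a change of 2.90 as fitted and of 0.90 with width and exon trends removed. The perlecan gene unc-52, which builds the matrix under muscle, rose by 1.92 as fitted, by 1.47 with the trends removed and by 1.24 with the width trend alone removed at a narrower smoothing. The median of the list was 0.90 with trends removed, with 31 genes up and 4 down.

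Of 45 tested genes of the epidermis and its apical matrix, 37 rose and 2 fell, with a median of 1.18 as fitted and 0.87 with trends removed. The matrix protein gene noah-1 had 434.5, 477.0 and 542.9 CPM in double mutant libraries, against 183.9, 126.3, 121.6 and 106.4 CPM in hpl-2 libraries and 226.3 CPM in wild type. The β-spectrin gene unc-70, one of the members with the smallest p, rose by 0.88 as fitted and 0.23 with the trends removed. The proprotein convertase gene bli-4, which is needed for cuticle structure, went the other way: it had 182.5, 179.2 and 172.6 CPM in double mutant libraries, against 292.4, 287.1, 296.3 and 300.9 CPM in hpl-2 libraries, a change of -0.72 (SE 0.0494, adjusted p = 7.877e-10, edgeR). The balancer of the double mutant strain carries an allele of bli-4, and the gene overlaps mut-2 on the opposite strand. Whether either bears on this change was not tested.

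Collagens make up the cuticle that the epidermis secretes late in embryogenesis. The table lists 182 collagen genes, of which 35 were tested, 26 rose and 1 fell (2 with trends removed), with a median of 1.57. The cuticle collagen gene sqt-3 had 201.7, 241.5 and 300.3 CPM in double mutant libraries, against 47.2, 28.5, 24.9 and 18.3 CPM in hpl-2 libraries and 38.8 CPM in wild type. The level of dpy-17 was 219.4 ± 33.1 CPM in the double mutant (SD, n = 3) and 44.7 ± 12.8 CPM in hpl-2 (SD, n = 4), a log2 fold change of 2.29 (SE 0.185, adjusted p = 5.613e-09, edgeR), and dpy-3 rose by 2.77. The type IV collagen genes let-2 and emb-9, whose products form the basement membrane, rose by 3.36 and 3.17. For sqt-3 and dpy-17 hpl-2 replicate 1 was the highest of its group, yet it stayed under all 3 double mutant libraries. The count of risen collagens depended on the filter on low counts, from 13 under a stricter filter to 52 without a filter.

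**Figure D3:**
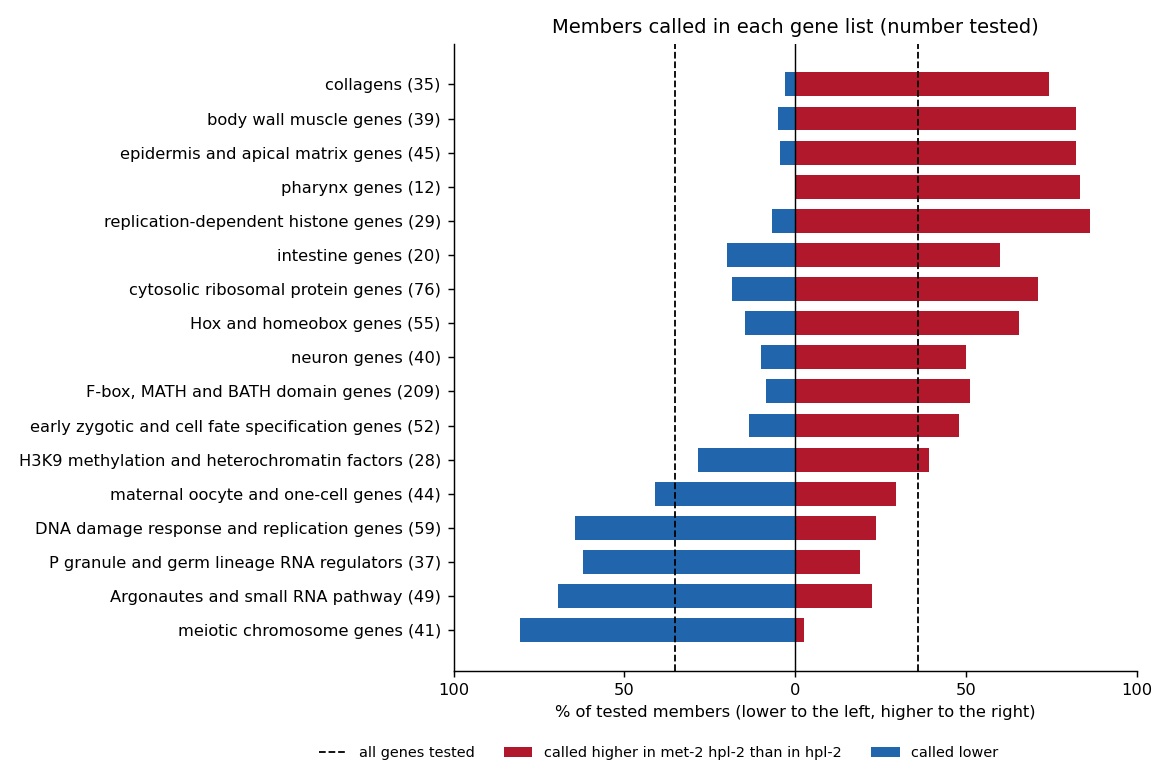
Percent of the tested members of 17 gene lists called higher (red, to the right) or lower (blue, to the left) in met-2 hpl-2 than in hpl-2 (edgeR, adjusted p under 0.05), with the number tested in brackets and dashed lines at the 36.0% and 35.2% of all tested genes. Muscle, epidermis, collagen, pharynx and histone lists lie mostly to the right and the meiotic list mostly to the left.

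Genes of the pharynx, the intestine and the nervous system more often rose than fell, while 36.0% of all tested genes rose and 35.2% fell. The lists held 30, 45 and 72 genes, of which 12, 20 and 40 were tested. A low member could enter the test through the group in which it was high. Of the 12 tested pharynx genes 10 rose and the others did not pass the test. Their median was 1.13 as fitted and 1.09 with trends removed. Their median levels were 8.15 CPM in the double mutant and 2.58 CPM in hpl-2, so the filter may have favoured members that were higher in the double mutant. The T-box factor gene tbx-2, which acts in anterior pharynx muscle, had 46.3, 52.6 and 57.1 CPM in double mutant libraries and 18.0, 18.2, 14.8 and 13.8 CPM in hpl-2 libraries (25.5 CPM in wild type), and the organ selector gene pha-4 rose by 1.05. In libraries thinned to equal depth the pharynx median was 0.67 over 9 genes. Of 20 tested intestine genes 12 rose and 4 fell (median 0.62), among them elt-2, the GATA factor gene of the intestine, at 9.74 ± 0.996 CPM in the double mutant (SD, n = 3), 3.64 ± 0.588 CPM in hpl-2 (SD, n = 4) and 5.86 CPM in wild type. The intestine members with the smallest p were the gap junction genes inx-3 and inx-2, which rose by 0.85 and 0.81 and are also active outside the intestine. Of 40 tested neuron genes 20 rose and 4 fell (median 0.38). The long ankyrin gene unc-44 rose by 1.45 as fitted, while its value was -0.07 with trends removed (adjusted p = 0.362, edgeR).

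Regulators of cell fate showed a mixed picture. Of 55 tested Hox and homeobox genes 36 rose and 8 fell, with a median of 0.58, while 36.0% of all tested genes rose and 35.2% fell. The sine oculis family gene ceh-32 had 149.3, 161.6 and 171.0 CPM in double mutant libraries, against 87.4, 74.2, 73.5 and 79.4 CPM in hpl-2 libraries and 122.1 CPM in wild type. The Pax6 gene vab-3 rose by 1.92 and also stood in hpl-2 under wild type, at 42.1 ± 5.17 CPM in the double mutant (SD, n = 3), 11.1 ± 2.90 CPM in hpl-2 (SD, n = 4) and 21.8 CPM in wild type. Among 52 early zygotic and cell fate genes 25 rose and 7 fell (median 0.14 as fitted and 0.017 with trends removed), led by the zinc finger gene die-1, which rose by 0.81, and by vet-6, which rose by 0.51 as fitted and 0.25 with trends removed. The endoderm factor gene end-3 fell to 3.80 ± 0.713 CPM in the double mutant (SD, n = 3), against 7.08 ± 1.15 CPM in hpl-2 (SD, n = 4). The number of fallen genes in this list depended on the settings, 13 with trends removed, 17 when scaled by library totals alone and 4 in thinned libraries. Its median log2 difference from the hpl-2 mean was 0.09 to 0.22 in the double mutant and 0.23 to 0.26 in wild type.

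Of 110 tested nuclear hormone receptor genes 39 rose and 26 fell (median 0.15), close to the share of all genes on the upper side. The list's median log2 difference from the hpl-2 mean was 0.12 to 0.18 in the double mutant and 0.14 to 0.19 in wild type. The receptor gene nhr-25, needed for epidermal development, had 99.3, 106.6 and 117.7 CPM in double mutant libraries, against 41.0, 29.7, 30.9 and 24.9 CPM in hpl-2 libraries and 57.5 CPM in wild type. The receptor gene nhr-68, a regulator of the propionate shunt, had 18.6, 16.7 and 17.9 CPM, against 4.73, 3.54, 4.47 and 3.05 CPM in hpl-2 libraries and 7.61 CPM in wild type. Its partner in that regulation, nhr-10, had 34.1 ± 0.951 CPM in the double mutant (SD, n = 3) and 33.2 ± 3.27 CPM in hpl-2 (SD, n = 4), and did not pass the test (log2 fold change 0.04, SE 0.0737, adjusted p = 0.668, edgeR).

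Genes of acyl-CoA metabolism did not move as a group, but some of them moved far. Of 33 tested propionate and acyl-CoA metabolism genes 15 rose, 10 of them at least 2-fold, and 13 fell, with a median of 0.04 that is 0.14 with trends removed and -0.06 when libraries are scaled by totals alone. Besides acdh-1 and acdh-2, the risers included genes of peroxisomal β-oxidation. The thiolase gene daf-22 had 34.4, 35.6 and 45.8 CPM in double mutant libraries, against 15.1, 8.93, 9.11 and 8.06 CPM in hpl-2 libraries and 20.7 CPM in wild type. The other peroxisomal enzyme genes acox-1.1, maoc-1 and dhs-28 rose by 1.98, 1.66 and 1.55. A pair of genes of the vitamin B12-dependent route of propionate breakdown, chosen after their values were seen, fell. The methylmalonyl-CoA mutase gene mmcm-1 had 150.2 ± 2.92 CPM in the double mutant (SD, n = 3) and 208.2 ± 5.86 CPM in hpl-2 (SD, n = 4), a change of -0.47, and pccb-1, a subunit gene of propionyl-CoA carboxylase, changed by -0.31.

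Genes of the germ line and of meiosis were lower in the double mutant. Of 41 tested meiotic chromosome genes 33 fell and 1 rose, with a median of -0.61 as fitted and -0.57 with trends removed. Wild type also lay under hpl-2 in this list. The list's median log2 difference from the hpl-2 mean ran from -0.33 to -0.29 in wild type and from -0.63 to -0.55 in the double mutant. The cohesin gene coh-3, whose product holds meiotic chromosomes together, had 28.8, 29.1 and 26.8 CPM in double mutant libraries, against 57.4, 66.7, 65.3 and 65.0 CPM in hpl-2 libraries and 43.5 ± 0.690 CPM in wild type (SD, n = 3). The gene him-5, needed for crossovers on the X chromosome, had 3.20, 2.41 and 2.60 CPM, against 10.3, 13.9, 11.3 and 10.6 CPM in hpl-2 libraries, a log2 fold change of -2.07 (SE 0.153, adjusted p = 1.966e-09, edgeR). The double mutant libraries of both genes lay below every hpl-2 and wild-type library. The synaptonemal complex gene syp-2 (-1.12), the X pairing gene him-8 (-0.99), zhp-3 (-0.84) and spo-11 (-0.78), whose product makes meiotic breaks, changed the same way.

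For the germ granule and germ lineage list 23 of 37 genes fell and 7 rose (median -0.26). The gene gld-3, for a regulator of poly(A) tails in germ cells, had 218.8, 220.6 and 200.6 CPM in double mutant libraries, against 341.0, 371.0, 400.3 and 401.4 CPM in hpl-2 libraries and 279.2 CPM in wild type. The level of pgl-1, which encodes a core protein of these granules, was 237.7 ± 23.6 CPM in the double mutant (SD, n = 3), 308.5 ± 17.3 CPM in hpl-2 (SD, n = 4) and 235.4 CPM in wild type. For pgl-1, as for the list's median, the double mutant stood near wild type and hpl-2 above it: the median difference from the hpl-2 mean ran from -0.33 to -0.21 in double mutant libraries and from -0.34 to -0.27 in wild type. The granule gene deps-1 changed by -0.69 as fitted and by -0.45 with trends removed. With trends removed 26 genes of the list fell and 3 rose.

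Among 49 tested genes of Argonaute proteins and small RNA pathways 34 fell and 11 rose (median -0.27). The gene tofu-6, whose product acts in the making of piRNAs, had 52.1, 49.4 and 49.8 CPM in double mutant libraries, against 110.7, 113.2, 118.7 and 114.5 CPM in hpl-2 libraries and 104.6 CPM in wild type. Its change of -1.18 (SE 0.0505, adjusted p = 1.675e-12, edgeR) went along with a fall of the Piwi gene prg-1, which had 257.8 ± 13.3 CPM in the double mutant (SD, n = 3) and 385.0 ± 20.0 CPM in hpl-2 (SD, n = 4). The microRNA Argonaute genes rose instead. The level of alg-1 was 377.0 ± 48.8 CPM in the double mutant (SD, n = 3) and 158.7 ± 12.3 CPM in hpl-2 (SD, n = 4), a change of 1.25 as fitted and 0.82 with trends removed. For alg-2 the change was 0.80 as fitted and 0.51 with trends removed. The germline Argonaute gene wago-4 rose by 0.68, and its level in hpl-2 was already above wild type: 206.6 ± 4.47 CPM in the double mutant (SD, n = 3), 129.4 ± 4.41 CPM in hpl-2 (SD, n = 4) and 82.8 CPM in wild type.

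Of 59 tested genes of DNA repair and replication, 38 fell and 14 rose (median -0.22), and 41 fell and 8 rose with trends removed. Their summed level was 15143 to 15488 CPM in the double mutant and 14893 to 15144 CPM in hpl-2, so it did not follow the median. The replication factor gene psf-1, a subunit of the GINS complex, had 15.9, 16.3 and 14.4 CPM in double mutant libraries, against 37.4, 38.8, 40.2 and 38.3 CPM in hpl-2 libraries and 29.8 CPM in wild type. The helicase gene rcq-5 changed by -0.84 and the p53 homolog gene cep-1 by -0.66, while egl-1, a trigger of cell death, rose by 1.58 at 3.73 ± 0.530 CPM in the double mutant (SD, n = 3) and 1.21 ± 0.791 CPM in hpl-2 (SD, n = 4).

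**Figure D4:**
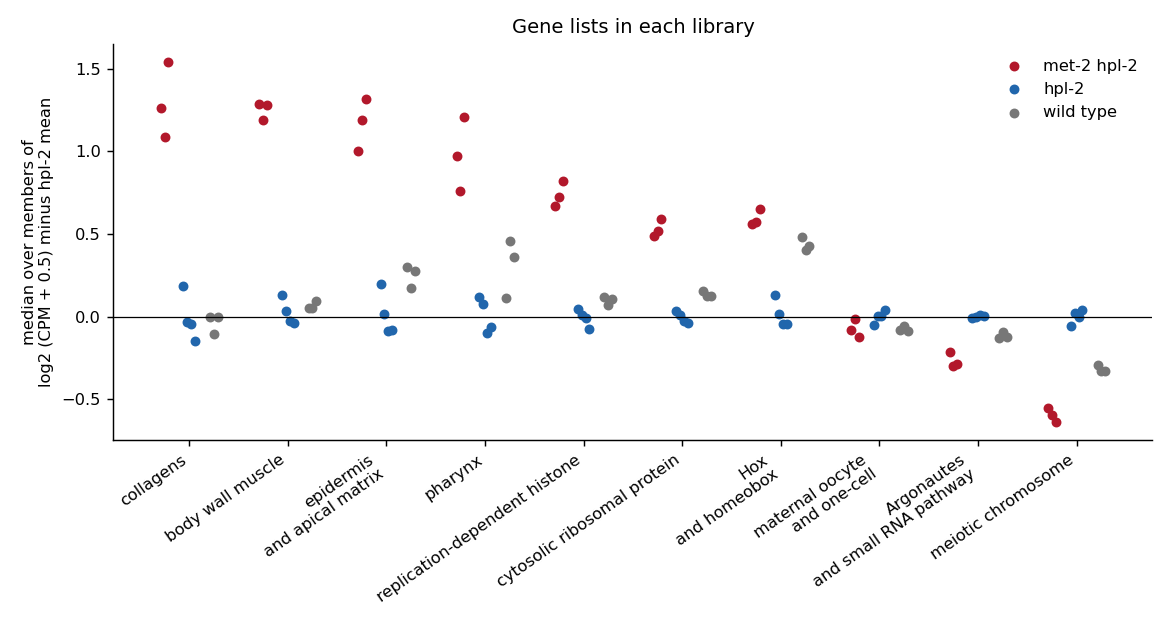
Median over the tested members of 10 gene lists of log2 (CPM + 0.5) minus the hpl-2 mean (vertical axis), with a point for each library of met-2 hpl-2 (red, n = 3), hpl-2 (blue, n = 4) and wild type (grey, n = 3). The collagen list stands at 1.26, 1.09 and 1.54 in the double mutant libraries and the meiotic list at -0.55, -0.59 and -0.63, outside the hpl-2 libraries, while the maternal list overlaps them.

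Maternal transcripts, which the oocyte loads and the early embryo degrades, gave no common direction over the list of 44 tested genes: 13 rose and 18 fell (median -0.06), and 9 rose and 22 fell with trends removed (median -0.15). Of 6 defining maternal markers 5 were lower in the double mutant (oma-1, pos-1, mex-5, spn-4 and nos-2) and par-2 was higher. Their summed level was 4785, 4836 and 4639 CPM in double mutant libraries, against 5425, 5918, 6029 and 6230 CPM in hpl-2 libraries and 4573 to 4711 CPM in wild type. The double mutant thus lay near wild type and below hpl-2 in this sum (exact permutation test, two-sided p = 0.0571, the smallest that 3 against 4 libraries allow). The kinase gene par-4, which sets embryonic polarity, changed by -0.61 as fitted and by -0.43 with trends removed, and oma-1 by -0.43. The summed level of 6 early zygotic markers overlapped between groups, at 176.3 to 198.3 CPM in the double mutant and 190.0 to 218.1 CPM in hpl-2 (exact permutation test, two-sided p = 0.229).

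Markers of later stages stood higher in the double mutant beside these lists. Summed over 159 cuticle collagen markers, levels were 440.6 to 578.2 CPM in the double mutant and 150.3 to 199.0 CPM in hpl-2. Wild type had 163.0 to 186.9 CPM. The gene sqt-3, named above, alone held 201.7 to 300.3 CPM of the sum in the double mutant and 18.3 to 47.2 CPM in hpl-2. Much of the rise in the sum was therefore the rise of this gene. Of the 159 markers 23 were tested, of which 16 rose and 1 fell, and 26 had no count in any of the 7 libraries. Low markers could enter the test through the double mutant alone, such as col-165 with 136 counts there and 1 in hpl-2. The number of risen markers may thus be partly set by the filter on low counts. Among all tested genes with a mean between 1 and 5 CPM, 43.1% rose and 10.7% fell. The sum of 3 late muscle markers was 42.0 to 67.5 CPM in the double mutant, 5.91 to 8.99 CPM in hpl-2 and 4.21 to 6.26 CPM in wild type, and all 3 rose. Markers of the parents were near 0: the 6 vitellogenin genes of the adult intestine summed to 3.42 to 4.91 CPM in the double mutant and 1.89 to 3.05 CPM in hpl-2, and the 33 sperm protein genes to 5.70 to 8.96 CPM and 3.94 to 4.81 CPM. The part of embryo stage in the muscle, epidermis, collagen and germline results was not tested, and it cannot be told apart from genotype in these groups.

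Genes of the H3K9 pathway moved in both directions, mostly by small amounts. Of 28 tested H3K9 methylation and heterochromatin genes, a list that holds both mutated genes, 11 rose and 8 fell, against 36.0% and 35.2% of all tested genes, and with trends removed 7 rose and 11 fell. The list's median was 0.06 as fitted, -0.0056 with trends removed and -0.04 when scaled by library totals alone. The methyltransferase gene set-25, which acts after MET-2 in worms, had 155.0, 165.6 and 160.1 CPM in double mutant libraries, against 171.6, 178.8, 168.2 and 182.9 CPM in hpl-2 libraries, a change of -0.13 (SE 0.0457, adjusted p = 0.0164, edgeR). Of 2 genes for proteins that work with MET-2, lin-65 changed by -0.36 and arle-14 did not pass the test, at 44.9 ± 2.96 CPM in the double mutant (SD, n = 3) and 45.7 ± 3.42 CPM in hpl-2 (SD, n = 4). The other HP1 gene, hpl-1, and cec-4, whose product anchors methylated chromatin at the nuclear edge, did not pass the test either, with log2 fold changes of 0.10 (SE 0.136) and 0.07 (SE 0.0416). Larger changes were those of set-6, a gene related to histone methyltransferases, which changed by -1.11, and of the chromodomain gene cec-1, which rose by 1.04.

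The zinc finger gene mep-1, a partner of the nucleosome remodeler LET-418, rose by 0.71, with 706.5, 761.3 and 802.9 CPM in double mutant libraries, against 508.3, 463.4, 442.0 and 436.9 CPM in hpl-2 libraries and 672.1 CPM in wild type. Of 21 DREAM and synMuv B genes, a list that also holds the mutated genes, 11 rose (52.4%) and 5 fell (23.8%). Over all tested genes these shares were 36.0% and 35.2%. The list's median was 0.16 as fitted and 0.0096 with trends removed. The E2F gene efl-1 had 107.0, 107.9 and 106.0 CPM in double mutant libraries, against 161.8, 164.2, 164.1 and 162.8 CPM in hpl-2 libraries and 153.8 CPM in wild type, a change of -0.61 (SE 0.0383, adjusted p = 2.934e-10, edgeR). The DREAM subunit genes lin-37 and lin-52 changed by -0.68 and -0.51, while the Retinoblastoma homolog gene lin-35 did not pass the test as fitted (-0.06, SE 0.0359) and passed with trends removed (-0.15, adjusted p = 0.001039, edgeR). With trends removed 7 genes of this list rose and 5 fell.

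Histone and ribosomal protein genes were higher. Of 29 tested replication-dependent histone genes, in a list of 70, 25 rose and 2 fell, with a median of 0.72. The gene his-63 had 824.7, 841.3 and 866.2 CPM in double mutant libraries, against 189.9, 189.1, 177.5 and 178.8 CPM in hpl-2 libraries and 179.4 CPM in wild type, a change of 2.20 (SE 0.0489, adjusted p = 1.11e-16, edgeR). Summed over the list, histone genes made up 37287 to 43623 CPM in the double mutant, 20861 to 22257 CPM in hpl-2 and 23174 to 23629 CPM in wild type. Copies of histone genes are nearly identical, so the split of reads among them is uncertain.

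Of 76 tested ribosomal protein genes 54 rose and 14 fell (median 0.54). The small subunit gene rps-2 had 579.8, 608.3 and 618.1 CPM in double mutant libraries and 319.4, 331.7, 305.6 and 303.8 CPM in hpl-2 libraries, with 303.3 CPM in wild type. Against it, rps-29 fell to 21.5, 23.5 and 24.6 CPM in double mutant libraries, against 93.4, 80.1, 90.7 and 84.9 CPM in hpl-2 libraries. The longest exon of rps-29 spans 100 bases, and rpl-39, the strongest faller of this list, is also built of short exons. With trends removed 59 ribosomal protein genes rose and 11 fell.

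Genes encoded by the mitochondrial genome were taken by chromosome, a choice made after the files were seen because their symbols were not matched. Of 12, 6 rose and 1 fell as fitted (median 0.23), but with trends removed 2 rose and 6 fell (median -0.11). ND6 had 18.5, 23.2 and 21.6 CPM in double mutant libraries and 7.57, 8.16, 7.56 and 10.4 CPM in hpl-2 libraries. WBGene00000829 changed by 0.33 as fitted and by -0.05 with trends removed. The summed level of the 12 genes was lower in the double mutant, 33534 to 35797 CPM, than in hpl-2, 38640 to 39923 CPM.

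Environmental response and defence genes moved in part. Of 93 tested genes of the cytochrome P450, UGT, GST and dehydrogenase families 46 rose (49.5%) and 15 fell (16.1%), with a median of 0.35. Over all tested genes 36.0% rose and 35.2% fell. Among the members of these families cyp-13B1 rose by 2.18 and ugt-50 by 2.11. In contrast, gst-7 had 145.7, 133.5 and 122.5 CPM in double mutant libraries, against 246.5, 254.0, 270.1 and 272.1 CPM in hpl-2 libraries. The gene dhs-1 changed by -0.93. This list's median log2 difference from the hpl-2 mean was 0.25 to 0.44 in the double mutant and 0.34 to 0.37 in wild type. Of 36 tested C-type lectin and immune effector genes, out of 368 in the table, 21 rose and 4 fell (median 0.59), with irg-7 up by 2.45 and dod-6 by 1.94. In thinned libraries 30 were tested and 13 of these rose. The summed level of the list was lower in the double mutant, 3215 to 3271 CPM, than in hpl-2, 3632 to 3932 CPM, and was 3484 to 3561 CPM in wild type.

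The Skp1-related genes skr-13 and skr-12 were the members with the smallest p in the list of pals and intracellular pathogen response genes. Of its 22 tested genes 13 rose (59.1%) and 2 fell (9.09%), against 36.0% and 35.2% of all tested genes. The list's median log2 difference from the hpl-2 mean was 0.31 to 0.41 in the double mutant and 0.25 to 0.34 in wild type. Levels of skr-13 were 170.6, 171.8 and 177.0 CPM in double mutant libraries, against 85.5, 84.2, 80.1 and 79.5 CPM in hpl-2 libraries and 108.6 CPM in wild type. As near copies of each other, skr-12 and skr-13 may share reads. Of 209 tested genes with F-box, MATH or BATH domains 107 rose and 18 fell (median 0.28), with fbxb-75 up by 0.83 and fbxa-192 by 1.03. With trends removed 70 rose and 29 fell (median 0.12). This list's median log2 difference from the hpl-2 mean was 0.25 to 0.31 in the double mutant and 0.24 to 0.31 in wild type. The double mutant thus stood near wild type in this list, with hpl-2 below both. Of 41 tested chemoreceptor genes, out of 1300 in the table, 17 rose and 1 fell (2 with trends removed). The risen share of 41.5% was near the 36.0% of all tested genes and the 43.1% of those between 1 and 5 CPM. The fallen share of 2.44% was under the 35.2% and 10.7% of these. Fewer rose in other fits: 12 of 35 in thinned libraries, 12 of 41 in DESeq2 and 3 of 7 under the stricter filter. Of the members, srh-71 rose by 2.08 and srh-34 by 1.16, both at low levels. They had 5.79 ± 0.360 and 5.28 ± 0.763 CPM in the double mutant (SD, n = 3). In hpl-2 they had 1.35 ± 0.443 and 2.35 ± 0.305 CPM (SD, n = 4).

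Of 23 tested heat shock and chaperone genes 10 rose (43.5%) and 6 fell (26.1%), with a median of 0.17. These shares are not far from the 36.0% and 35.2% of all tested genes. The endoplasmic reticulum chaperone gene hsp-3 had 2423, 2653 and 2947 CPM in double mutant libraries, against 1391, 1247, 1211 and 1159 CPM in hpl-2 libraries and 1999 CPM in wild type, and dnj-19 rose by 0.36. The Hsp70 genes F44E5.5 and F44E5.4 rose by 3.23 and 2.74 over hpl-2 and stood near wild type, at 7.10 ± 2.98 CPM for F44E5.5 in the double mutant (SD, n = 3), 0.721 ± 0.525 CPM in hpl-2 (SD, n = 4) and 7.41 CPM in wild type. Of 77 spermatogenesis genes 15 were tested, 7 rose (46.7%) and 4 fell (26.7%), with a median of 0.25. The sperm kinase gene spe-6 rose by 1.96 to 12.7 ± 2.08 CPM in the double mutant (SD, n = 3), against 3.26 ± 0.226 CPM in hpl-2 (SD, n = 4), and elt-1, which also sets epidermal fate, rose by 0.80.

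The X chromosome took a larger share of counts in the double mutant. X-linked genes held 7.92, 8.13 and 8.52% of counts in double mutant libraries, against 6.29, 5.94, 5.82 and 5.69% in hpl-2 libraries and 6.96 to 7.15% in wild type (exact permutation test, two-sided p = 0.0571, the smallest possible). The share was thus lower in hpl-2 than in wild type and higher in the double mutant than in either. Of 1122 tested genes on X, 52.6% rose and 17.7% fell, 216 rose and 21 fell at least 2-fold, and the median was 0.30 as fitted and 0.31 with trends removed. The share of chromosome I was 20.6% in the double mutant and 21.5% in hpl-2, that of chromosome III was 20.5% and 21.5%, and that of chromosome IV was 17.5% and 17.0%.

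Dosage compensation in worms lowers expression from both X chromosomes of hermaphrodites, and of 22 tested genes of X dosage compensation and sex determination 15 rose and 5 fell (median 0.27 as fitted and 0.10 with trends removed). The gene of the X-chromosome histone demethylase DPY-21 (dpy-21) had 712.9, 733.6 and 796.7 CPM in double mutant libraries and 467.3, 463.2, 424.3 and 447.4 CPM in hpl-2 libraries, a change of 0.73 as fitted and 0.30 with trends removed. The Mediator subunit gene dpy-22 rose by 0.74 as fitted and 0.14 with trends removed. The gene xol-1, the master switch of sex determination, rose by 1.19, with 22.8 ± 1.34 CPM in the double mutant (SD, n = 3), 9.97 ± 0.694 CPM in hpl-2 (SD, n = 4) and 12.6 CPM in wild type. For sdc-2, which directs the complex to X, the levels were 717.6 ± 28.3 CPM in the double mutant (SD, n = 3), 468.3 ± 31.2 CPM in hpl-2 (SD, n = 4) and 690.5 CPM in wild type, and its rise of 0.62 as fitted was 0.13 with trends removed.

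The arms of worm autosomes carry most of their H3K9 methylation. Each chromosome was divided by length into 3 equal parts, the middle of which is called the centre here, so these borders are not the measured ones of methylated domains. In autosome arms 38.3% of 4856 tested genes rose and 31.5% fell (median 0.06), while in the centres 26.9% of 3350 rose and 47.1% fell (median -0.14). With trends removed the medians were 0.02 and -0.16. Genes of the centres were also at higher levels, with a median of 52.6 CPM in hpl-2, against 30.7 CPM in the arms. Among all tested genes between 20 and 100 CPM, 27.8% rose and 48.3% fell (median -0.13), close to the shares in the centres. Of those over 100 CPM, 39.1% rose and 41.1% fell. The part of expression level in the difference between arms and centres was not tested. On chromosome I, which had the widest gap of the autosomes, the medians were 0.04 in the arms and -0.22 in the centre. Chromosome III had the narrowest, with medians of -0.02 and -0.15. Neighbouring genes are not independent, and no test was made of these shares.

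**Figure D5:**
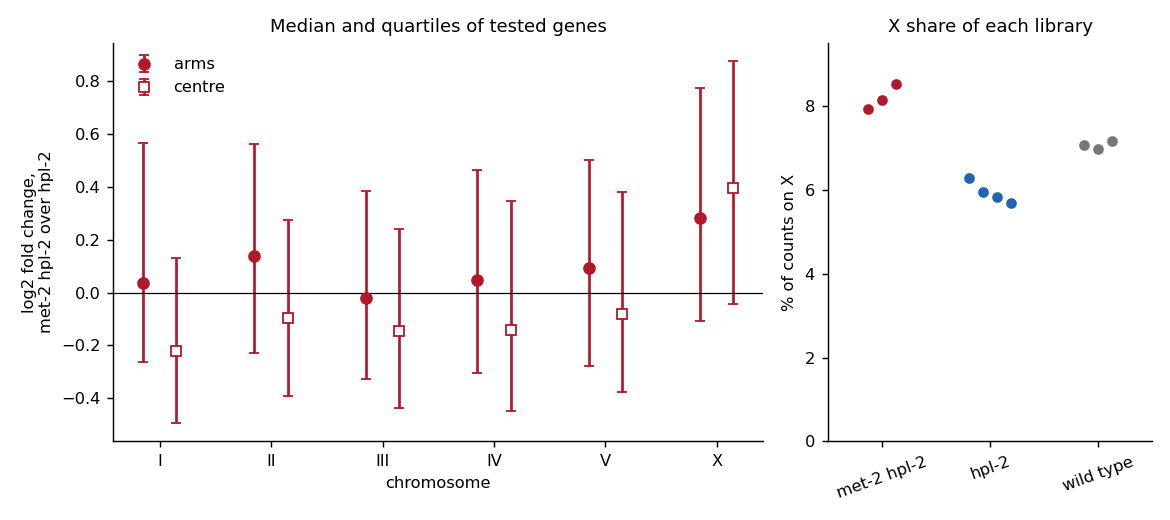
Left, log2 fold change of met-2 hpl-2 over hpl-2 (vertical axis) by chromosome for tested genes in the arms (filled) and the centre (open), with medians as points and the 25th to 75th percentile as bars. Right, percent of counts on the X chromosome in each library of met-2 hpl-2 (n = 3), hpl-2 (n = 4) and wild type (n = 3). On each of the 5 autosomes the centre has the lower median, and the X share is highest in the 3 double mutant libraries.

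Pseudogenes, gene copies that have lost their function, more often rose than fell. Of 664 listed, 113 were tested, and of these 58 rose, 27 of them at least 2-fold, and 6 fell (median 0.56 as fitted, 0.58 with trends removed and 0.56 in thinned libraries). Their summed level was 1002, 998.4 and 1039 CPM in double mutant libraries, against 789.2, 746.3, 739.4 and 708.6 CPM in hpl-2 libraries, with 800.9 to 819.0 CPM in wild type. At equal depth, in thinned libraries 142 to 156 pseudogenes reached 5 counts in the double mutant and 119 to 128 in hpl-2. Of all 1891 tested genes with a mean between 1 and 5 CPM, 43.1% rose and 10.7% fell. A low gene could enter the test through the group in which it was high, and with the stricter filter on low counts 657 genes in place of 1090 were at least 2-fold higher.

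Few genes had no count at all in one group and a clear level in the other at equal depth. In thinned libraries 3 genes reached 5 counts in all double mutant libraries with no count in any hpl-2 library: F53F1.4 and R02F11.1 on chromosome V and the hedgehog-related gene wrt-1 on chromosome II. In the deposited counts wrt-1 had 34, 36 and 47 in the double mutant, 0 in all 4 hpl-2 libraries, and 1, 1 and 0 in wild type. F36D1.9 on chromosome I showed the reverse, with 2, 2 and 1 deposited counts in the double mutant and 11, 14, 10 and 8 in hpl-2. No gene met the same rule at 10 counts in either direction. The rule asks for exactly 0 counts, so it leaves out cut-2 and F41F3.3, each with a single count over the hpl-2 libraries.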

How the data were processed

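RNA from early embryos was sequenced on a NextSeq 2000 after rRNA depletion with a stranded total RNA kit, per the labels' protocols. The submitters' processing notes name Trimmomatic 0.39 for trimming and ce10 as genome build. No source used here names the aligner, the counter or its use of strand. The authors deposited raw counts per gene for 14 libraries and a width per gene in bases. Gene names, positions and exons came from the WBcel235 annotation, a different build name for the same identifiers, matched by gene ID for 19870 of 20392 genes, of which 19182 have a symbol. Coordinates printed are those of that annotation. Strand use being unknown, overlapping genes cannot be told apart by their counts.

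All 14 libraries of 4 genotypes were fitted with edgeR 4.0.16 (R 4.3.3; filterByExpr by group, TMM factors, quasi-likelihood test), p-values were adjusted by the Benjamini-Hochberg method over 9498 genes, and the contrast was met-2 hpl-2 minus hpl-2. Each SE was taken as the size of the log2 fold change over the root of the F statistic. Library sums and shares were compared by an exact permutation test over 3 against 4 libraries, 35 splits, which cannot give a p under 0.0571. All 9 pairs of replicates within the 2 groups differed by more than sampling noise in a chi-square test of their counts. Intervals and floors cover counting error alone.

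Alternatives were other scalings, filters, DESeq2 1.42.0, limma 3.58.1 voom, thinning to 5332725 counts, leaving out libraries, a replicate block, gene width limits and removal of smooth trends (lowess span 0.3, with 0.5 and 0.1 as checks). The width and exon alternatives were added, and the span set, after results were seen, once overlap, exon number and junction density had been looked at. The comparison, gene lists and rules were chosen with earlier results of these data known. Genes named by rule were met-2, hpl-2, the 10 genes that rose most and the 10 that fell most, and from each list the 2 of smallest p where at least 2 were called. The 10 had to pass the test without overlap of libraries, and every such gene had to average 5 CPM or more in 1 of the groups. Other genes were chosen after their values were seen. Lists share members, and some hold genes active in other tissues. Large gene families may share reads.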

Additional observations from a re-analysis of the deposited data

Results flagged for a closer look

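In 91 sets of 4 hpl-2 values (named genes and library measures), 5 had a library far from the other 3, where chance gives about 1 in 20. For cut-2 it was replicate 1 at 0.1577 CPM, and for F41F3.3 replicate 2 at 0.154 CPM, each a single count with the other libraries at 0. For K10B2.4 replicate 3 had 7.387 CPM, with the others at 10.03 to 10.25 CPM, and all 3 double mutant libraries at 0.939 to 0.950 CPM. For the chemoreceptor gene srh-34 replicate 3 had 1.89 CPM, with the others at 2.464 to 2.523 CPM. The share of counts on chromosome I was 21.35% in replicate 1 and 21.5 to 21.53% in the others. All 4 named genes kept their call and direction in each fit without a single library.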

How the results depend on the processing

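Of the 72 genes named by rule, 70 kept their call and direction under all alternatives run, up to 24 each. Most of them were chosen for a large change or a small p in these data, so this says little about other genes. With width and exon trends removed unc-44 had -0.07276, and in thinned libraries with the trends removed 0.000499, and WBGene00000829 had -0.04822 and -0.03852, none past the test. Counts of called genes moved with the set tested. Genes with a longest exon of at least 500 bases (4962 tested) gave 1845 higher, 1799 lower, 508 at least 2-fold higher and 72 at least 2-fold lower. Genes of at least 1000 bases gave 146 at least 2-fold lower. The number at least 2-fold higher was 1893 without a low-count filter, where 18587 genes were tested, and 657 under the stricter filter, where 7849 were. The other counts stayed within 1.5 times of those given. Leaving out a library at a time gave 3194 to 3388 higher, 3121 to 3290 lower, 1015 to 1185 at least 2-fold higher and 305 to 365 at least 2-fold lower. Scaling by library totals alone set the median over all genes to -0.0864, against 0.0146 as fitted, with 2846 genes higher and 4017 lower. With trends removed 51 called genes were called the opposite way. With a replicate block 3287 rose and 3192 fell. Deviations of same-numbered replicates from their group means correlated at -0.339, -0.00303 and -0.206 over 5740 genes. Other pairs ran from -0.365 to 0.431, so the correlations show no pairing by number. They cannot tell whether same-numbered libraries were prepared together. Depth limits the comparison of genes under about 0.5 CPM, the level of 3 counts in an hpl-2 library.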
